A study of Rattus norvegicus with 8 samples.

Results

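Transforming growth factor beta (TGF-beta) is secreted in a latent form and acts through a short chain of proteins. The genes described here were its 3 ligands (Tgfb1, Tgfb2, Tgfb3), the latent TGF-beta binding proteins Ltbp1 and Ltbp2, the receptors Tgfbr1, Tgfbr2 and Tgfbr3, the signal transducer Smad3 and the inhibitory Smad7. The members were all probe sets to which the array's platform table assigns exactly 1 of these 10 symbols and no other. This gave 15 probe sets of 31099 on the array, for 9 of the 10 genes. Tgfbr2, the receptor that binds the ligand first, had no such probe set and was not analysed here. In rat kidney after the high phosphorus (HP) diet, the probe sets of Ltbp1 and Ltbp2 were higher than after the control diet. Both calls ended in most removals of a single array, and both differences turned negative when the arrays were centred on their medians. With the values as deposited, the probe sets of the ligands, receptors and Smads did not pass the test in either direction.

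RNA came from the left kidneys of male Wistar rats, 8 weeks old, and was hybridized to Affymetrix whole-genome rat arrays, 1 rat per array. The 4 HP rats had eaten a diet with 1.2% phosphorus for 24 days, in which KH2PO4 replaced corn starch and so added potassium as well, and the 4 control rats a diet with 0.3% phosphorus based on AIN-93G. Both diets had the same calcium level, and the authors picked 4 average animals from each group of 5, so the spread is that of selected rats. The question was how dietary phosphorus loading changes gene expression in the kidney.

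Each TGF-beta ligand is made with a propeptide that stays bound to it and keeps it inactive. LTBP-1 is linked to this propeptide and anchors the latent complex to fibrillin microfibrils, whereas LTBP-2 sits in the same microfibrils but does not bind latent TGF-beta. Once released, the ligand binds the type II receptor, which activates the type I receptor (Tgfbr1), and betaglycan (Tgfbr3) presents the ligand, TGF-beta2 above all. The active type I receptor phosphorylates Smad3, which enters the nucleus with Smad4, and Smad7 is induced by the signal and blocks the receptor. In the kidney the pathway is best known for the production of interstitial matrix.

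Every value below is on the log scale of the deposited data, read as log2 although its base is not stated. The summary method used by the authors, the distribution free weighted method (DFW), draws the 8 values of a probe set together, so that differences between arrays are far smaller than fold changes and cannot be read as such. They are therefore given in millionths (1e-06) of a log2 unit relative to the mean of the control arrays, and as a standardized difference, which is HP minus control divided by the pooled SD within the diets. The SD within diets ranged from 0.888 to 13.4 millionths in the 15 probe sets, against a median of 2.22 millionths over all probe sets. It was above that median in 13 of the 15. Levels of different probe sets are not comparable with each other. Each adjusted p comes from limma fitted to 31042 probe sets with the Benjamini-Hochberg adjustment, and a probe set was called at an adjusted p under 0.05. Exact p values come from two-sided permutation over all 70 arrangements of the arrays, the smallest possible being 0.0286.

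Of the 15 probe sets, 2 were called higher on the HP diet, 0 were called lower and 13 were not called. Over all probe sets tested, 2.95% were called higher and 1.13% lower. At an unadjusted p under 0.05, 4 of the 15 were higher and 1 was lower, against 9.53% higher and 9.45% lower of all probe sets. Rank products, the test named in the study's methods, also gave 2 higher and 0 lower at an FDR under 0.05, against 3.4% higher and 2.3% lower of all probe sets. The difference was positive in 8 of the 15, and its median was 0.16 SD, beside -0.21 SD over all probe sets tested. The diets did not overlap in 4 of the 15, with the HP arrays higher each time; over all probe sets, the HP arrays were all higher in 7.09% and all lower in 5.81%. A filter that left out the 25% of probe sets with the lowest means kept 12 of the 15, the others being 1 probe set each of Tgfbr1, Smad3 and Smad7.

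**Figure D1:**
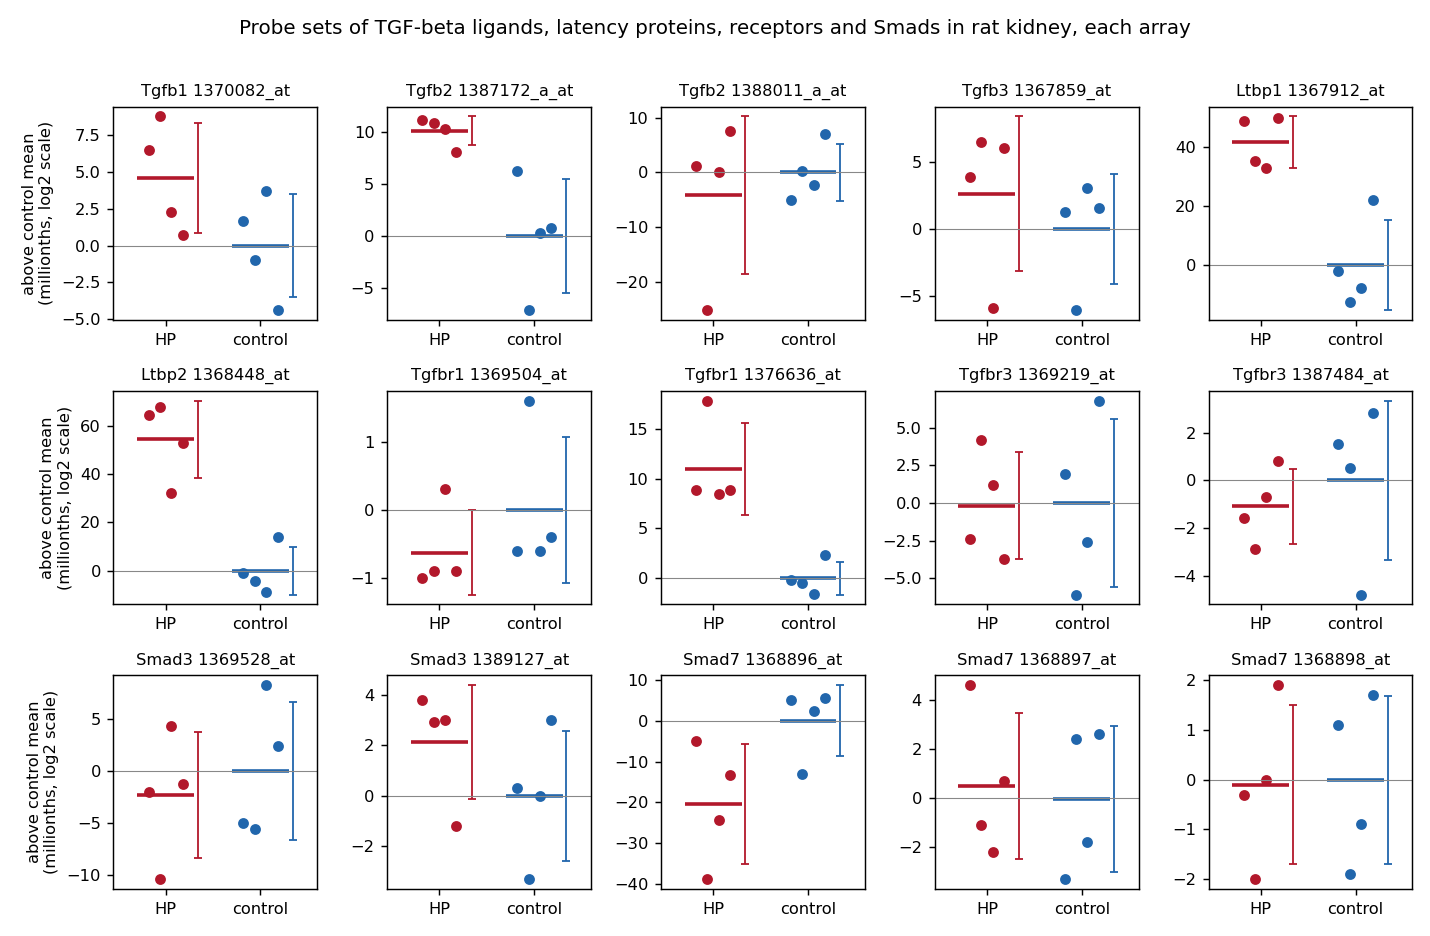
Values of the 15 probe sets on each array, in millionths of a log2 unit above the mean of the control arrays (vertical axes, a scale of its own in each panel), for HP (left, red) and control (right, blue). Points are single rats, horizontal lines are means and error bars are SDs (n = 4 per diet). The diets do not overlap for Ltbp1, Ltbp2, Tgfb2 1387172_a_at and Tgfbr1 1376636_at, and all 15 differences are negative after median centring of the arrays.

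The members that passed were Ltbp1 and Ltbp2. Ltbp2 (1368448_at), a microfibril protein, lay 64.4, 67.9, 32.2 and 53.1 millionths above the control mean on the 4 HP arrays, against -1.0, -4.4, -8.8 and 14.1 millionths on the 4 control arrays. All HP arrays lay above all control arrays. The difference was 54.4 ± 8.91 millionths (SE, n = 4 per diet), or 4.07 SD (adjusted p = 0.027; exact p = 0.0286; FDR by rank products 0.021). Ltbp1 (1367912_at), which holds the latent ligand in the matrix, lay 48.6, 35.3, 32.7 and 49.6 millionths above the control mean on the HP arrays, against -1.9, -12.4, -7.6 and 21.9 millionths on the control arrays. The diets did not overlap, and control replicate 4 lay closest to the HP arrays for both genes. The difference in Ltbp1 was 41.5 ± 8.28 millionths, or 3.34 SD (adjusted p = 0.0455; exact p = 0.0286; FDR by rank products 0.0341). The mean values, on the deposited scale, were 7.12 for Ltbp2 and 8.46 for Ltbp1 on both diets.

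Both calls were lost in most removals of a single array, and also with all 8 arrays when the replicate number was a block (adjusted p = 0.0597 for Ltbp1 and 0.0778 for Ltbp2). After quantile normalization Ltbp1 did not pass (128 millionths; adjusted p = 0.177), and Ltbp2 had no spread within the diets and no test. When each array was left out in turn, the call of Ltbp1 remained only without control replicate 4 (adjusted p = 0.0216), and it ended without each of the other 7 arrays, with adjusted p from 0.0724 (without HP replicate 3) to 0.119 (without control replicate 3). That of Ltbp2 remained without HP replicate 3 (adjusted p = 0.0174) or control replicate 4 (adjusted p = 0.0417), and ended without each of the other 6, with adjusted p from 0.0633 (without HP replicate 4) to 0.0819 (without control replicate 3). The difference stayed positive in all 8 cases for both genes. Of the alternatives that gave a value, only median centring turned its direction, to -19.5 millionths for Ltbp1 (adjusted p = 0.985) and -6.66 millionths for Ltbp2 (adjusted p = 0.994), since the array medians were on average 61.1 millionths higher on the HP diet, more than the difference of any of the 15 probe sets. Only 2 of the 31042 probe sets tested had a mean between the lowest and the highest array median. The median absolute difference between the diets over all probe sets was 1.53 millionths. The HP arrays had medians from -29.8 to 155 millionths around the mean control median, and the control arrays from -27.8 to 75.6 millionths.

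**Figure D2:**
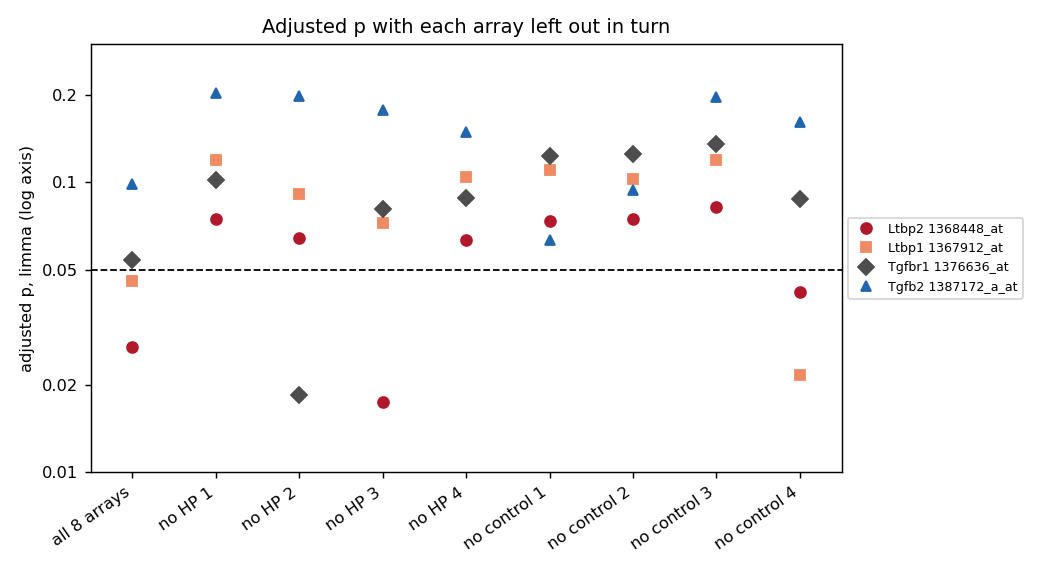
Adjusted p (vertical, log axis; dashed line at 0.05) of the 4 probe sets whose diets did not overlap, with all 8 arrays and with each array left out in turn (horizontal). Ltbp2 lies under 0.05 with all arrays (0.027) and in 2 of 8 removals, Ltbp1 (0.0455) in 1 of 8, Tgfbr1 1376636_at only without HP replicate 2 (0.0185), and Tgfb2 1387172_a_at in none.

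The sequences just upstream of Ltbp1 and Ltbp2 are shown because these were the members that passed. They are the 250 bases before the annotated start in RefSeq (GRCr8), on the minus strand for both, read 5′ to 3′. Capitals mark the Smad box, the letters CAGAC or their reverse complement GTCTG, to which Smad3 and Smad4 can bind. The regions are chr6:26177302-26177551 for Ltbp1 and chr6:110257299-110257548 for Ltbp2.
Ltbp1: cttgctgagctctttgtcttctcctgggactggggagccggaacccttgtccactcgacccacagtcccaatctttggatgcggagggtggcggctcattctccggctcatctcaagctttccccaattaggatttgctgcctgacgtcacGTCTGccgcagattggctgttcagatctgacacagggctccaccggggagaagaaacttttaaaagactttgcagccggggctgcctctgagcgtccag
Ltbp2: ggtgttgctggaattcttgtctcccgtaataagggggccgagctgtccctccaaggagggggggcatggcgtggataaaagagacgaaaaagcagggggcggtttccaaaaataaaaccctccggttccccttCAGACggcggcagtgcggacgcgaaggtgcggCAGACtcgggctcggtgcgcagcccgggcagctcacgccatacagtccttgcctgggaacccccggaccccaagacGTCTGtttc
The Smad box occurred at 1 place in the Ltbp1 stretch, 99 bases upstream of the start, and at 3 places in that of Ltbp2, 117, 85 and 9 bases upstream. It was in none of the same stretches of the other 8 genes, Tgfbr2 included. Of 33469 rat promoters of this length, 42.9% held it. The palindrome GTCTAGAC, which does not contain the box as searched but shares 4 letters with it at each end, was in 0.173% of these promoters and in none of the 10 genes. A match of 5 letters is a description of the sequence and was not tested for binding.

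Among the ligands, no probe set passed with the values as deposited. Tgfb2, the isoform that depends most on betaglycan, had 2 member probe sets that differed in direction. The paper names Tgfb2 among its upregulated genes. A further probe set that the study places under this name passed by rank products (FDR 0.0394) but not by limma (adjusted p = 0.0787). It is not a member and is described at the end. In 1387172_a_at the HP arrays lay 11.2, 10.9, 10.3 and 8.1 millionths above the control mean, against 6.2, -7.2, 0.3 and 0.7 millionths on the control arrays. Here the HP arrays were close together and all above the control arrays, and the difference was 10.1 ± 2.67 millionths, or 2.54 SD (adjusted p = 0.0985; exact p = 0.0286). In 1388011_a_at the HP arrays were at 1.1, -25.2, 0.0 and 7.5 millionths, against -5.0, 0.3, -2.3 and 7.1 millionths on the control arrays. The diets overlapped, with HP replicate 2 below all other arrays, and the difference was -4.16 ± 7.21 millionths, or -0.38 SD (adjusted p = 0.829). Without HP replicate 2 it was 2.85 millionths. Tgfb1, the main isoform in kidney fibrosis, was at 6.5, 8.8, 2.3 and 0.7 millionths on the HP arrays, against 1.7, -1.0, 3.7 and -4.4 millionths on the control arrays. HP replicates 1 and 2 were above all control arrays, and the difference was 4.56 ± 2.43 millionths, or 1.26 SD (adjusted p = 0.379; exact p = 0.143). Tgfb3, the third isoform, was at 3.9, 6.5, -5.9 and 6.1 millionths on the HP arrays, against 1.3, -6.1, 3.1 and 1.6 millionths on the control arrays. HP replicate 3 lay apart from the other HP arrays, and the difference was 2.63 ± 3.37 millionths, or 0.52 SD (adjusted p = 0.753; exact p = 0.429). The mean values of these 4 probe sets were 6.88 and 6.95 for Tgfb2, 6.64 for Tgfb1 and 6.76 for Tgfb3 on both diets. Median centring made the difference negative in all of them. After quantile normalization Tgfb1 (-112 millionths; adjusted p = 0.0498) and Tgfb3 (-283 millionths; adjusted p = 0.003) were called lower. In the same setting Tgfb2 1388011_a_at did not pass (adjusted p = 0.284), and 1387172_a_at had no test.

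The type I receptor Tgfbr1, the kinase that phosphorylates Smad3, was represented by 2 probe sets of opposite sign, the second within its SE of 0. In 1376636_at, whose platform accession is an expressed sequence tag, the HP arrays lay 8.8, 17.8, 8.4 and 8.8 millionths above the control mean, against -0.2, -0.5, -1.6 and 2.3 millionths on the control arrays. The diets did not overlap, with HP replicate 2 above the other HP arrays, and the difference was 11 ± 2.31 millionths, or 3.17 SD (adjusted p = 0.0539; exact p = 0.0286). It passed without HP replicate 2 (adjusted p = 0.0185), with array weights (adjusted p = 0.0469) and with the lowest 25% of probe sets left out (adjusted p = 0.045), and its direction turned under median centring (-50.1 millionths). In 1369504_at, whose accession is the RefSeq transcript, the HP arrays were at -1.0, -0.9, 0.3 and -0.9 millionths, against -0.6, 1.6, -0.6 and -0.4 millionths on the control arrays. The arrays lay within a few millionths of each other, and the difference was -0.644 ± 0.649 millionths, or -0.73 SD (adjusted p = 0.671; exact p = 0.4). The mean values were 10.23 for 1376636_at and 6.45 for 1369504_at, the second of which lay in the 25% of probe sets with the lowest means.

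Betaglycan, encoded by Tgfbr3, had 2 probe sets with overlapping diets. In 1387484_at the HP arrays were at -1.6, -2.9, -0.7 and 0.8 millionths, against 1.5, 0.5, -4.8 and 2.8 millionths on the control arrays, a difference of -1.11 ± 1.74 millionths, or -0.43 SD (adjusted p = 0.806). In 1369219_at the HP arrays were at -2.4, 4.2, 1.2 and -3.7 millionths, against 1.9, -6.1, -2.6 and 6.8 millionths on the control arrays, a difference of -0.164 ± 3.15 millionths, or -0.03 SD (adjusted p = 0.989). In neither did any HP array lie above or below all control arrays. After quantile normalization 1369219_at was called lower (-181 millionths; adjusted p = 0.00103), and 1387484_at had no test.

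Smad3 carries the signal to the nucleus. Its probe set 1389127_at was at 3.8, 2.9, 3.0 and -1.2 millionths on the HP arrays, against 0.3, -3.3, 0.0 and 3.0 millionths on the control arrays, a difference of 2.13 ± 1.62 millionths, or 0.89 SD (adjusted p = 0.552). Its probe set 1369528_at was at -2.0, -10.4, 4.4 and -1.2 millionths on the HP arrays, against -5.0, -5.6, 8.3 and 2.4 millionths on the control arrays, a difference of -2.29 ± 4.24 millionths, or -0.36 SD (adjusted p = 0.843). The diets overlapped in both.

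Smad7, the feedback inhibitor, had 3 probe sets, none of which passed. In 1368896_at the HP arrays were at -4.9, -38.9, -24.3 and -13.4 millionths, against 5.0, -13.0, 2.5 and 5.5 millionths on the control arrays. All HP arrays but replicate 1 were below all control arrays, and control replicate 2 lay below the other control arrays. The difference was -20.4 ± 8.06 millionths, or -1.69 SD (unadjusted p = 0.0402 by limma; adjusted p = 0.237; exact p = 0.0571), and leaving out single arrays gave adjusted p from 0.178 to 0.394. The other probe sets of Smad7 differed by 0.489 ± 2.01 millionths in 1368897_at (adjusted p = 0.94) and -0.119 ± 1.12 millionths in 1368898_at (adjusted p = 0.976), with all arrays of the first between -3.3 and 4.6 millionths and all arrays of the second between -2.0 and 1.9 millionths. The mean values of the 3 probe sets were 8.51, 6.17 and 6.67 on both diets.

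Of the 5 genes with several probe sets, only Tgfbr3 had all of them on the same side of 0, and leaving out single arrays moved this count between 0 and 3 genes. Within genes 7 pairs can be formed, and 5 of them had opposite signs. In each of these 5 pairs, at least 1 probe set had a difference smaller than its SE, so its sign is not established. The share of opposite pairs over all genes was not computed. To compare probe sets of 1 gene, each was scaled over the 8 arrays to mean 0 and SD 1, and the difference between the scaled values was compared between the diets. For Tgfbr1, 1376636_at minus 1369504_at ranged from -0.23 to 2.54 on the HP arrays and from -3.09 to -0.42 on the control arrays. The HP arrays were thus all above the control arrays, and the 2 probe sets differed by 2.36 in their response (exact p = 0.0286; 0.2 after adjustment over 7 pairs). For Tgfb2, 1387172_a_at minus 1388011_a_at ranged from -0.46 to 3.14 on the HP arrays and from -2.09 to 0.46 on the control arrays, a difference of 1.95 (exact p = 0.0571; adjusted p = 0.2). In Smad7, 1368896_at against 1368897_at gave -1.48 (exact p = 0.114) and against 1368898_at gave -1.23 (exact p = 0.0857), both with an adjusted p of 0.2. The pairs of Smad3 (1.24; exact p = 0.257), of Tgfbr3 (-0.41; exact p = 0.686) and the remaining pair of Smad7 (0.25; exact p = 0.829) had adjusted p from 0.36 to 0.829. No pair passed after adjustment.

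**Figure D3:**
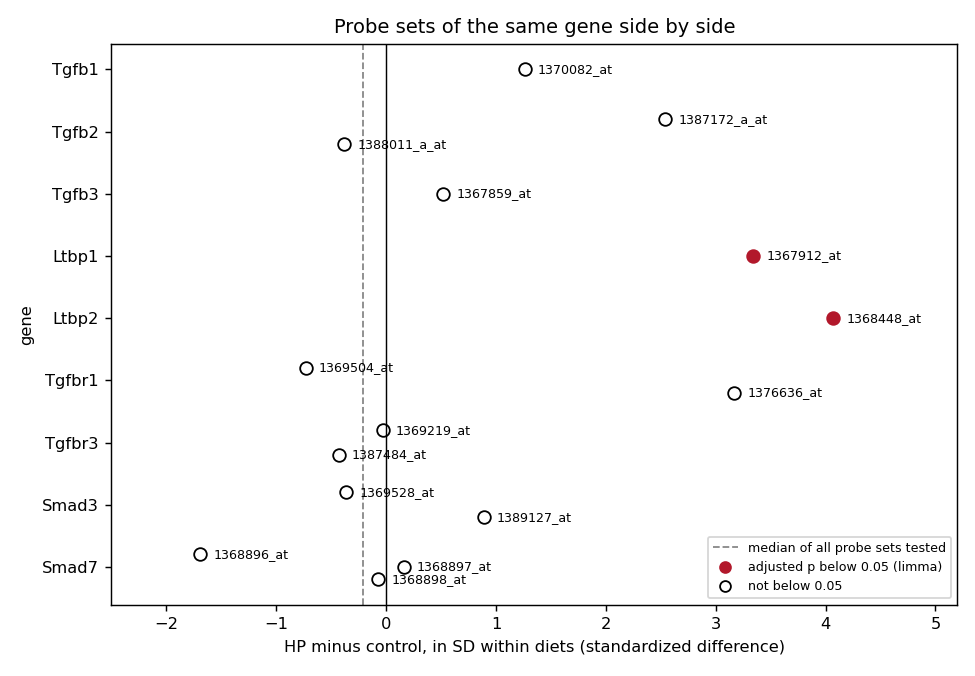
Standardized difference (HP minus control in SD within diets, horizontal) of each probe set, with probe sets of the same gene in 1 row (vertical). Filled points were called (limma, adjusted p under 0.05), and the dashed line is the median of all probe sets (-0.21). Ltbp1 (3.34) and Ltbp2 (4.07) passed, although both are negative after median centring, and Tgfb2, Tgfbr1, Smad3 and Smad7 have probe sets on both sides of 0.

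The other genes of the pathway were taken from 5 lists, with the probe set of highest mean for each gene, which measured 52 of 59 genes. Of these, 17 were higher on the HP diet, 0 were lower and 35 were not called. Over all 14217 genes with 1 probe set each, 4.58% were higher and 1.23% were lower. At an unadjusted p under 0.05, 21 of the 52 were higher and 3 lower, against 13.4% and 9.34% of all genes. Rank products gave 16 higher and 0 lower, against 5.3% and 2.31% of all genes. The median standardized difference was 0.96 in the 5 lists and -0.07 over all genes. After median centring of the arrays, 5 were higher and 0 were lower. Of the 17 higher genes, 5 are also in the study's table of enriched terms, which was drawn from these arrays, so the lists are not independent of the earlier results.

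Among the genes for ligand latency and activation, 3 of 11 were higher, with a median of 1.46 SD. Fbn1, the fibrillin to which LTBPs attach, was 765 ± 61.7 millionths higher on the HP diet, or 8.25 SD (adjusted p = 0.00479), and its other probe set also passed (adjusted p = 0.00884). After median centring Fbn1 stood at 5.29 SD but did not pass (adjusted p = 0.975). Ltbp4, a further binding protein of the latent complex, was 403 ± 49.4 millionths higher, or 5.43 SD (adjusted p = 0.0124). It did not pass with the replicate block (adjusted p = 0.0622), after quantile normalization (242 millionths, adjusted p = 0.176) or after median centring (3.35 SD, adjusted p = 0.975). Emilin1, an elastic fibre protein that restrains the processing of the TGF-beta precursor, was 25.3 ± 4.62 millionths higher, or 3.65 SD (adjusted p = 0.0362), but turned to -35.8 millionths under median centring. Its call remained only without HP replicate 4 (adjusted p = 0.0156), and without each of the other arrays the adjusted p lay between 0.065 and 0.0991. Emilin1 did not pass by rank products (FDR 0.074) or after quantile normalization (11.1 millionths; adjusted p = 0.444). Ltbp3 had a difference of 3.58 ± 1.21 millionths, or 2.01 SD (adjusted p = 0.177), and -57.5 millionths under median centring.

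None of the 5 other receptors and coreceptors passed in either direction (2 higher and 0 lower at an unadjusted p under 0.05, and 0 by rank products), with a median of 0.10 SD. Eng, the endothelial coreceptor endoglin, stood at 2.12 SD (adjusted p = 0.16), and Acvrl1, a type I receptor of endothelium, at 1.64 SD (adjusted p = 0.255). After quantile normalization Acvrl1 was called lower (-174 millionths; adjusted p = 0.0117). Bambi, a receptor without a kinase domain, and Vasn, which binds the ligand, stood at 0.10 and -0.26 SD (adjusted p = 0.965 and 0.894).

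Of the other Smads and Smad regulators, 2 of 15 were higher, with a median of 0.20 SD, while Smad2 and Smad4 did not pass. Tgif1, a corepressor of Smad2 and Smad3, was 5710 ± 920 millionths higher, or 4.13 SD (adjusted p = 0.026). Its call remained without HP replicate 3, HP replicate 4 or control replicate 1, and ended without each of the other 5 arrays (adjusted p from 0.0604 to 0.0771). Fkbp1a, the immunophilin that binds the inactive type I receptor, was 8.13 ± 1.34 millionths higher, or 4.11 SD (adjusted p = 0.0276), but turned to -52.9 millionths under median centring. Its call remained without HP replicate 2 or HP replicate 3 and ended without each of the other 6 arrays (adjusted p from 0.0597 to 0.0773), and it passed neither with the replicate block (adjusted p = 0.123) nor by rank products (FDR 0.36). Zfyve9, which brings Smads to the receptor, stood at -1.80 SD (adjusted p = 0.219), and Usp15, a deubiquitinase of the receptor, at -1.69 SD (adjusted p = 0.241).

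Of 5 proteoglycans and carriers that bind the ligand, 3 were higher. A2m, a plasma protease inhibitor that carries TGF-beta, was 1910 ± 122 millionths higher, or 10.40 SD (adjusted p = 0.00376). Bgn and Dcn, the small matrix proteoglycans biglycan and decorin, were 361 ± 32.7 and 1740 ± 169 millionths higher, or 7.35 and 6.84 SD (adjusted p = 0.00604 and 0.00666). After quantile normalization Bgn was 54.9 millionths higher and did not pass (adjusted p = 0.432), and after median centring neither A2m (adjusted p = 0.372), Bgn (0.975) nor Dcn (0.918) passed. Aspn, the related asporin, stood at -0.51 SD (adjusted p = 0.755).

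Of 16 genes known as targets of TGF-beta, 9 were higher by limma, with a median of 4.25 SD over the 16. Rank products gave 10 of the 16 higher and 0 lower, against 5.3% and 2.31% of all genes. In all 9 every HP array was above every control array, as in 7.09% of all probe sets. These 9 had been called on the same values, so this adds no support. Col3a1, a fibrillar collagen chain, was 4920 ± 410 millionths higher, or 8.00 SD (adjusted p = 0.00507). Fn1, which encodes fibronectin, was 8970 ± 799 millionths higher, or 7.47 SD (adjusted p = 0.00589). Timp1, an inhibitor of matrix metalloproteinases, was 12300 ± 1200 millionths higher, or 6.84 SD (adjusted p = 0.00666), and Lox, the enzyme that crosslinks collagen, was 2890 ± 317 millionths higher, or 6.06 SD (adjusted p = 0.00887). With the replicate block Lox did not pass (adjusted p = 0.0636). Col1a1, Col1a2, Tagln, Tnc and Postn also passed. The other 7 did not pass by limma. Among these, Ccn2, often used as a readout of the pathway, stood at 0.19 SD (adjusted p = 0.928), Acta2, the smooth muscle actin of myofibroblasts, at 1.04 SD (adjusted p = 0.473) and Tgfbi at -1.22 SD (adjusted p = 0.394). The other 4 were Cdkn1a, Plod2, Snai1 and Cdkn2b.

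**Figure D4:**
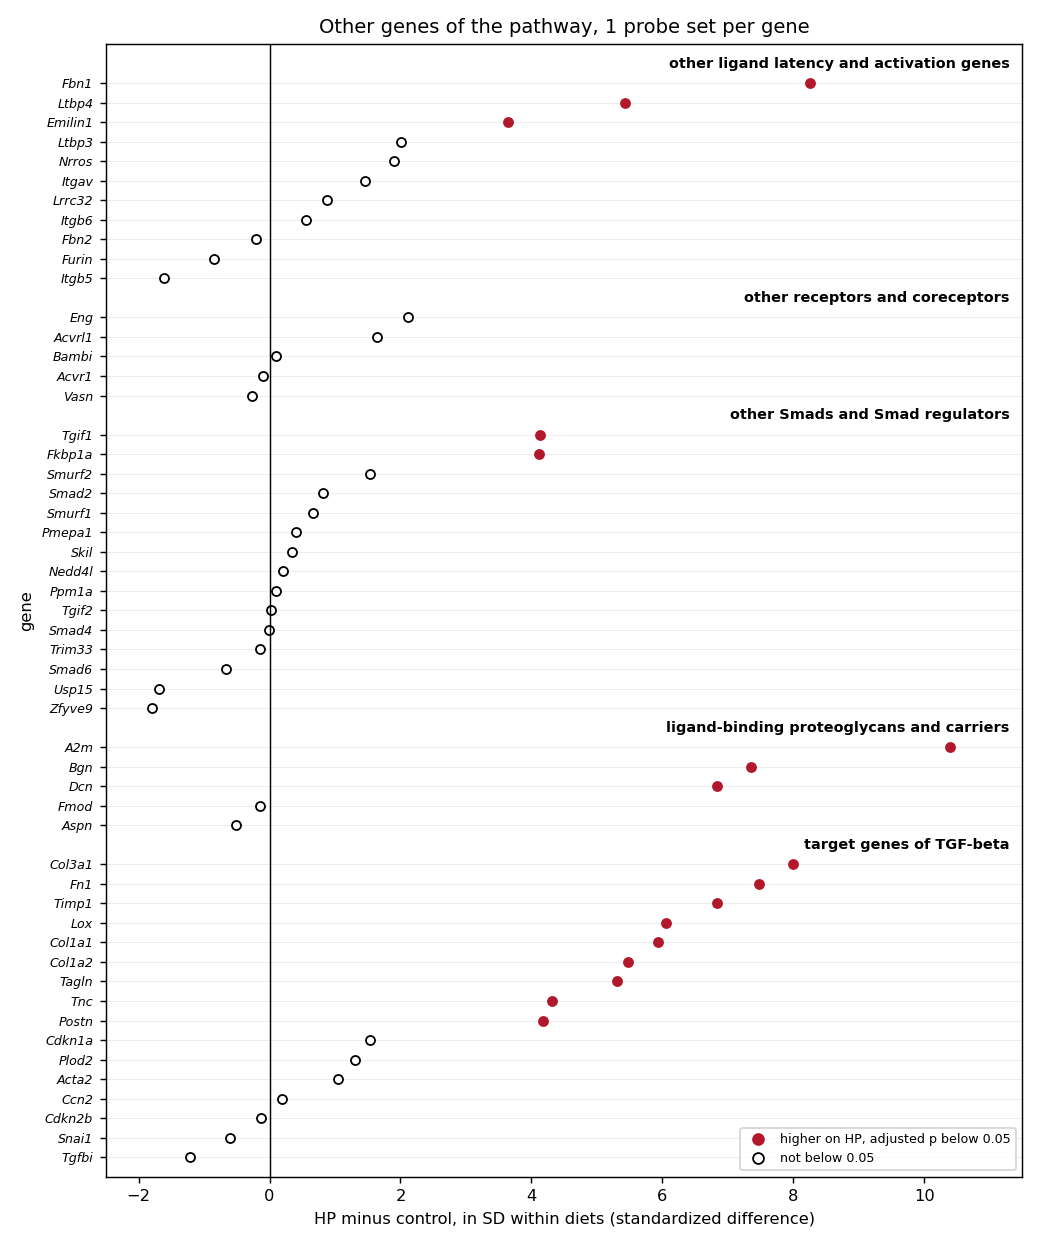
Standardized difference (HP minus control in SD within diets, horizontal) of the 52 other pathway genes, with 1 probe set per gene (vertical) in 5 lists. Filled points were called (limma, adjusted p under 0.05). All 17 filled points lie right of 0, and the receptor list has none, although Emilin1 and Fkbp1a are negative after median centring.

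The markers fixed for other cells moved with these results in part. Over all genes with 1 probe set each, 4.58% were called higher and 1.23% lower. At an unadjusted p under 0.05 by limma these shares were 13.4% and 9.34%, and by rank products 5.3% and 2.31%. All 7 measured kidney markers, among them Umod, Slc34a1 and Lrp2, had means between 9.92 and 14.22. Of these, 0 of 7 were called (1 lower at an unadjusted p under 0.05, and 0 by rank products). Their median was -1.02 SD, with 2 of 7 positive. Slc12a3 stood at -2.72 SD (adjusted p = 0.0822), with every HP array below every control array, as in 5.81% of all probe sets. The mean of the scaled kidney values ran from -0.61 to -0.07 on the HP arrays and from -0.13 to 0.87 on the control arrays. The second probe set of Slc34a1, 1370610_at, stood at -3.03 SD and passed by rank products (FDR 0.0168) but not by limma (adjusted p = 0.0604). Of the macrophage markers, 7 of 10 were higher, with the mean of their scaled values from 0.30 to 1.41 on the HP arrays and from -1.05 to -0.46 on the control arrays. Of the fibroblast and pericyte markers, 2 of 8 were higher (Pdgfra and Cspg4), with scaled means from 0.52 to 1.04 on the HP arrays and from -0.81 to -0.51 on the control arrays. Of the tubular injury markers, 5 of 7 were higher, with scaled means from 0.52 to 1.33 on the HP arrays and from -0.93 to -0.68 on the control arrays. The endothelial list had 0 of 7 called (1 lower at an unadjusted p under 0.05, and 1 lower by rank products), and the list of T and B cells 1 of 7, Cd3g. Scaled means of the endothelial list ran from -0.55 to 0.61 on the HP arrays and from -0.62 to 0.62 on the control arrays. Those of the T and B cell list ran from -0.40 to 1.00 and from -0.17 to -0.12. Genes already called higher enter the scaled means, so a separation of the diets there adds no support. Whether the shifts in the marker lists have a part in the values of Ltbp1, Ltbp2 and the matrix genes was not tested. In whole kidney, more cells of a type and more RNA per cell cannot be told apart.

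The genes with a pattern over the 8 arrays most like that of Ltbp2, by the mean absolute difference of scaled values, were Sparc (0.114), Mfap4 (0.117) and Guca2a (0.117), where the median over all probe sets was 1.15. Sparc is a collagen-binding matrix protein and Mfap4 a protein of microfibrils and elastic fibres. Guca2a, as near as Mfap4, is neither of these and was not called (adjusted p = 0.0571 by limma). The standardized differences of Sparc, Mfap4 and Guca2a between the diets were 5.37, 3.30 and 3.09. These genes were picked for closeness to Ltbp2 on the same arrays, so a positive difference follows from the choice.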

How the data were processed

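Kidney RNA of 8 rats, 4 per diet, was measured on 8 arrays. The authors deposited log values (read as log2, base not stated) summarized over all arrays by DFW; these were used as deposited, and the arrays' number limits the precision. The 57 Affymetrix control probe sets were left out of limma 3.58.1 (R 4.3.3; prior degrees of freedom 0.772), and 31042 were tested. Rank products used 16 pairs of arrays and 1000 permutations. The platform table gave 1 symbol for 20832 probe sets, several for 436 and none for 9831. Every member was named, with the 4 genes of smallest p in each other pathway list and the 3 genes nearest to the member of smallest p. Further genes mentioned were chosen after their values were seen. Alternatives were trend and robust moderation, array weights, quantile normalization, median centring, a filter on low means, the replicate number as a block, other probe sets of a gene and removal of each array. Members and lists were chosen with earlier results of these data known. Tests were checked on simulated data. Figures used Python 3.11.15 and matplotlib 3.10.9.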

Additional observations from a re-analysis of the deposited data

Results flagged for a closer look

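In 7 of 72 groups of 4 arrays, the highest or lowest array was set apart from the others by more than 0.83 of the group's range (Dixon's critical value at 95%), which chance gives in about 5% of groups. In Tgfbr1 1376636_at this was HP replicate 2 (0.963 of the range), and in Tgfbr1 1369504_at it was HP replicate 3 (0.962) and control replicate 2 (0.878), in each case the highest of its diet. Control replicate 2 was the lowest of its diet in Smad7 1368896_at (0.836). Among the other pathway genes, HP replicate 2 was the lowest of its diet in Ltbp3 (0.854), HP replicate 4 in Emilin1 (0.907) and control replicate 1 in Col3a1 (0.902).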

How the results depend on the processing

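Trend and robust moderation left the direction and the side of the threshold of all 15 member probe sets as they were. With array weights 3 members were higher (Tgfbr1 1376636_at in addition), and Smad7 1368898_at stood at 0.137 millionths. Counting the unlisted probe set as well, added after the data had been seen, left 2 members higher.

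Median centring gave 78 probe sets higher and 19 lower, beside 915 and 350 as deposited, with 0 members and 5 other pathway genes higher, and 5 genes with their probe sets in 1 direction. In millionths it turned Ltbp1 to -19.5, Ltbp2 to -6.66, Tgfb1 to -56.5, Tgfb2 1387172_a_at to -50.9, Tgfb3 to -58.4, Tgfbr1 1376636_at to -50.1, Smad3 1389127_at to -58.9 and Smad7 1368897_at to -60.6, and among other genes Ltbp3 to -57.5, Emilin1 to -35.8, Eng to -57.8, Acvrl1 to -56.9, Bambi to -60.8 and Fkbp1a to -52.9. Centring subtracts the array medians, which differed by 61.1 millionths between the diets, beside a median absolute difference of 1.53 millionths over all probe sets.

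Quantile normalization left no spread within the diets in 15255 probe sets, 9 of the 15 members among them, which then had no test. In the rest 340 were higher and 5044 lower, with 0 members higher and 3 lower, and 12 other pathway genes higher and 8 lower. The members called lower were Tgfb1, Tgfb3 and Tgfbr3 1369219_at. The other genes called lower included Ltbp3, Acvrl1, Usp15 and Aspn. Quantile normalization turned Tgfb1 to -112, Tgfb3 to -283, Ltbp3 to -114, Acvrl1 to -174, Bambi to -29.2 and Vasn to 154 millionths, and the cause was not tested. Rank products gave 715 probe sets lower.

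The replicate numbers are shared between the diets. The deviations of same-numbered arrays correlated by 0.121, 0.0887, 0.0626 and 0.00148. HP replicates 1, 2 and 3 correlated best with their own number, and HP replicate 4 with another. These correlations are small and the labels name no pairs, so the arrays were not taken as pairs. Whether the numbers mark pairs was not settled. With the replicate block 254 probe sets were higher and 115 lower, with 0 members and 11 other pathway genes higher (Ltbp1 adjusted p = 0.0597, Ltbp2 adjusted p = 0.0778).

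Leaving out single arrays gave 339 to 672 probe sets higher, 79 to 219 lower, 0 to 2 members higher, and 0 to 3 genes with probe sets in 1 direction. The difference then ran from -8.04 to 2.85 millionths in Tgfb2 1388011_a_at, -2.20 to 2.11 in Tgfbr3 1369219_at, -4.51 to 0.469 in Smad3 1369528_at, -0.891 to 1.40 in Smad7 1368897_at, -0.791 to 0.520 in Smad7 1368898_at, -0.670 to 1.03 in Bambi and -3.32 to 0.954 in Vasn. With 4 arrays per diet, differences of the size seen in most members were within the spread between rats.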

Other observations

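A further probe set, 1392382_at, is not listed in the platform table and was counted with no gene, while a supplementary table of the study places it under Tgfb2. The paper names Tgfb2 among its upregulated genes. This probe set was chosen by the study on these arrays, so its values are only described. It lay 46.9, 34.3, 41.2 and 34.2 millionths above the control mean on the HP arrays, against 3.4, -23.7, -2.4 and 22.8 millionths on the control arrays. All HP arrays were above all control arrays, as in Tgfb2 1387172_a_at, at a difference of 39.1 ± 9.47 millionths, or 2.75 SD. It passed by rank products (FDR 0.0394) but not by limma (adjusted p = 0.0787), and leaving out single arrays gave adjusted p from 0.0428 (without control replicate 4) to 0.177 (without control replicate 3). The 3 probe sets under this name thus stood at 2.75, 2.54 and -0.38 SD.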
